A study of Homo sapiens with 18 samples.

Results

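Homeobox, SOX, GATA and T-box genes that pattern tissues in the embryo were followed in HepG2 liver cancer cells and in a pair of HepG2 clones that carry the DNAJB1-PRKACA fusion. Members were taken by symbol: HOXA, HOXC and HOXD genes, numbered members of the sine oculis family (such as SIX4) and of the PAX, LHX, DLX, MSX, IRX, MEIS, PBX, PITX, OTX, CDX, EMX, EN, TGIF, POU, NKX, TBX, SOX and GATA families, and ISL1, HHEX, HLX and PDX1. HOXB genes were not taken. Of the 15019 genes listed in either of the authors' deposited tables, 69 are members: 68 of 14888 genes in the H33 table, 68 of 14896 in the H12 table and 67 in both. EN1 is listed only for H33 and LHX4 only for H12. GENCODE 29 holds 158 protein-coding symbols that match the rule, and the other 89, PDX1, ISL1 and SOX17 among them, are not listed in either table.

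H33 and H12 are each a clone of HepG2 with the genotype DNAJB1-PRKACA, which joins the start of a heat shock co-chaperone gene to that for the catalytic subunit of the cyclic AMP-dependent kinase PKA and marks fibrolamellar liver cancer. HepG2, a human hepatoblastoma line with the genotype WT, was the control. Per the labels, 6 samples were collected from each line (18 in all), every line was kept in RPMI1640 with fetal bovine serum, and poly-A RNA was sequenced. How the fusion was made is not given in the sources used here, and a difference between a clone and HepG2 covers everything in which the lines differ. The samples are named biological replicates, but separate cultures are not mentioned, so p-values may measure a technical spread.

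Homeobox genes encode transcription factors with a homeodomain, a fold that contacts short AT-rich DNA sites. HOX proteins give cells their place along the body axis and gain precision from partner proteins of the TALE class, such as MEIS and PBX. SOX proteins bind and bend DNA through an HMG box, GATA proteins use zinc fingers, and T-box proteins use the domain that names them. In the embryonic liver HHEX, TBX3, GATA4, GATA6 and SOX9 act in the foregut endoderm, the hepatoblast or the bile duct, while most HOX, PAX, LHX and EN genes are known from other tissues.

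Values come from 1 table of edgeR statistics per clone, so neither the depth of a library nor the value of a single sample was available. A level below is a group level in CPM, counts scaled to the size of the library, implied by the mean CPM and the fold change. HepG2 levels are quoted from the H33 comparison. The H12 comparison implies nearly the same ones: over the 41 members above 1 CPM in HepG2 the SD between both was 0.0122 log2 units. A log2 fold change is clone over HepG2, and its standard error (SE) is the one implied by the change and its likelihood ratio. A gene was called at an adjusted p under 0.05, adjusted by the authors over all listed genes. Levels under 0.00781 CPM lie at a fitted floor, as for a gene without reads in a group, and no fold is given against them. Close to that floor the implied SE does not measure sampling and may be too low.

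Of the 68 members in the authors' deposited table for H33, 65 were called, 35 higher and 30 lower, where 89.6% of all genes were called, 44.2% as higher and 45.3% as lower. For H12 the authors' deposited table had 64 of 68 called, 33 higher and 31 lower, where 86.0% of all genes were called, 41.8% as higher and 44.3% as lower. The share of members called is therefore close to that of all genes. The sizes were larger: the median absolute log2 fold change of the members was 3.33 in H33 and 2.88 in H12, against 0.84 and 0.83 over all genes in the authors' deposited tables. A called change of at least 1 log2 unit was found for 54 members (79.4%) in H33 and 55 (80.9%) in H12, where 44.5% and 44.1% of all genes in the authors' deposited tables reached it. A gene silent in HepG2 can be listed only if a clone has reads for it, and a gene silent in a clone only if HepG2 has them. Listed members had to differ in part for that reason, so these sizes describe them and support nothing further.

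**Figure D1:**
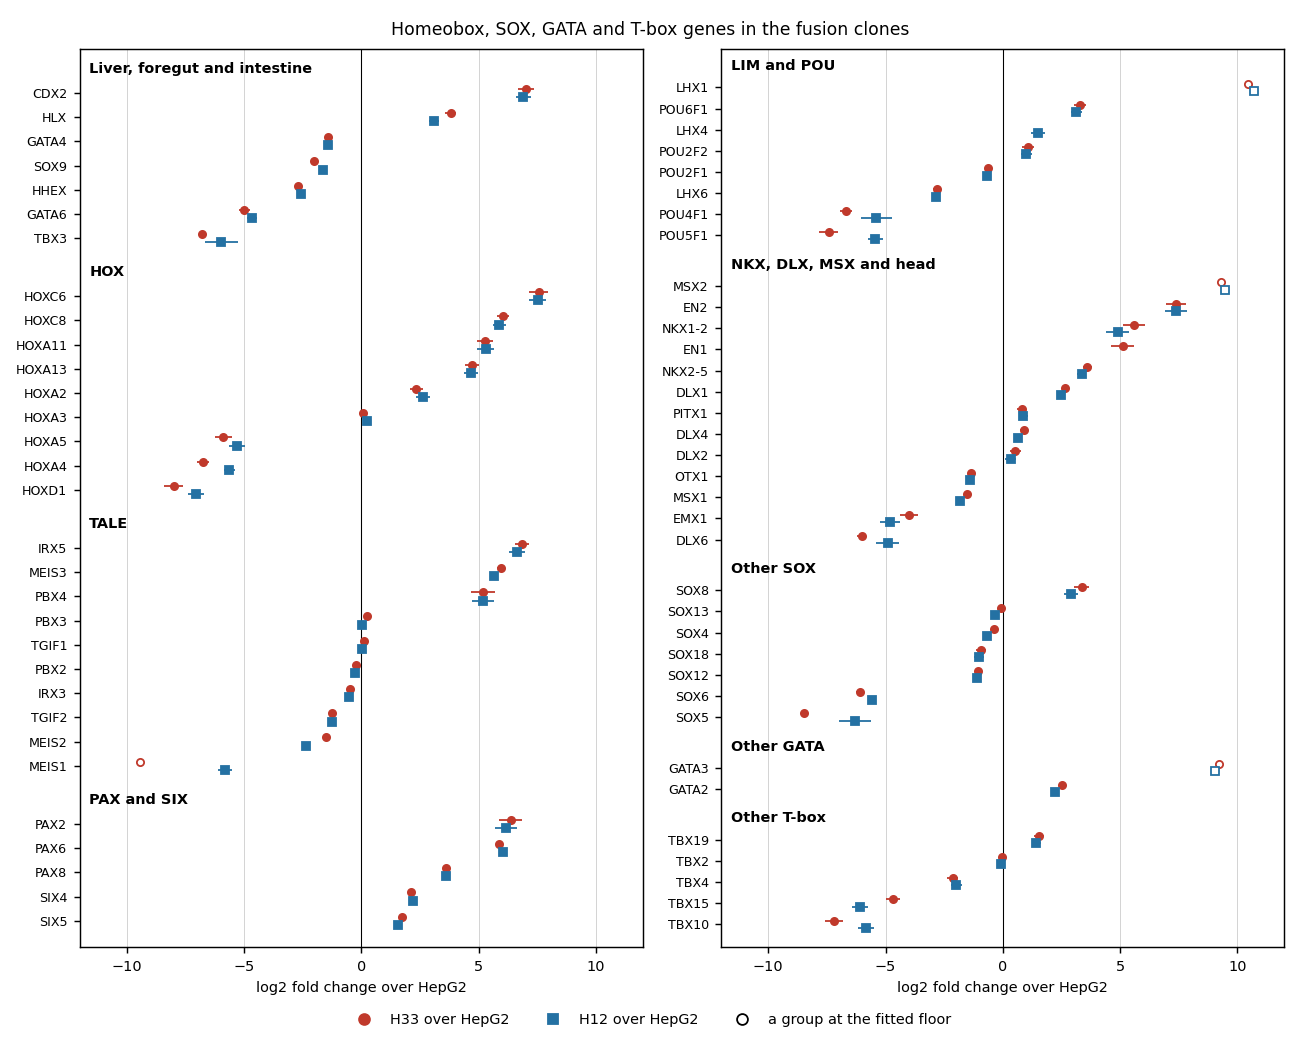
Log2 fold change over HepG2 of 66 of the 69 members by role, for H33 (red circles) and H12 (blue squares), with bars for the implied SE. Open symbols have a group at the fitted floor and no bar, and PAX2, PAX6, PAX8, SIX4 and SIX5 all lie right of 0.

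The hepatoblastoma label was set beside defining liver genes. The 9 hepatocyte markers (ALB, APOA1, APOB, TTR, SERPINA1, HNF4A, TF, FGB and AHSG) summed to 111 CPM in H33 and 910 CPM in H12, against 57106 CPM in HepG2. The hepatoblast markers AFP, DLK1 and GPC3 summed to 6.01 CPM in H33 and 141 CPM in H12, against 8542 CPM in HepG2. None of these 12 was at the floor, but their H12 levels lie near the common level described in the next paragraph. Of 6 neuroendocrine markers 4 were listed (CHGB, SCG2, SYP and SNAP25), summing to 2468 CPM in H33 and 2303 CPM in H12, against 5.72 CPM in HepG2. SCG2 made up most of the sum in the clones, with 2392 CPM in H33 and 2259 CPM in H12, against 0.142 CPM in HepG2. Of 6 fibroblast markers 4 were listed, summing to 1456 CPM in H33 and 1206 CPM in H12, against 56.0 CPM in HepG2. COL1A2 alone made up most of the sum in the clones, with 1440 CPM in H33 and 1190 CPM in H12, against 3.86 CPM in HepG2, while PDGFRB and ACTA2 fell in each clone. Of 5 cholangiocyte markers 3 were listed, SOX9 among them, summing to 263 CPM in H33 and 263 CPM in H12, against 246 CPM in HepG2. Of 4 leukocyte markers 2 were listed, summing to 182 CPM in H33 and 187 CPM in H12, against 3194 CPM in HepG2. LYZ made up most of the HepG2 sum, with 3.75 CPM in H33 and 51.3 CPM in H12, against 3130 CPM in HepG2, while CD68 rose to 178 CPM in H33 and 136 CPM in H12, against 64.4 CPM in HepG2. Of 4 endothelial markers 1 was listed, at 0.385 CPM in H33 and 0.312 CPM in H12, against 1.20 CPM in HepG2. PTPRC, PECAM1 and KRT7 were not listed, nor were the neuroendocrine markers CHGA and INSM1. What these markers have to do with the members' changes was not tested, and in bulk RNA fewer cells of a type and less RNA per cell cannot be told apart.

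Genes nearly absent from H33 gathered near a common level in H12. With at least 10 CPM in HepG2, 160 genes were under -9 in the authors' deposited table for H33 and had a median of -5.93 (SD 0.203) in that for H12, or 1.64% of the HepG2 level. Their median implied SE was 0.807 in H12 and 0.122 in H33. At or under -5 stood 12 members in the authors' deposited table for H33 and 11 in that for H12, with H12 values between -7.04 (HOXD1) and -5.31 (HOXA5). Of these 11, 7 lay within 2 SD of that common level. Its part in the H12 values was not tested, since it needs values per library.

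Regulators of liver, foregut and intestine formation were mostly lower in the clones. Of the 7 listed genes of this group 5 were lower and 2 higher in each of the authors' deposited tables. Over all genes 45.3% were lower in H33 and 44.3% in H12. Roles were set after the values were seen, so counts by role only describe the members. HHEX (ENSG00000152804, GRCh38 chromosome 10 from 92689951 to 92695646), the homeobox gene that the liver bud needs, stood at 10.2 CPM in H33 and 11.4 CPM in H12, against 66.7 CPM in HepG2. Its log2 fold change in the authors' deposited tables was -2.71 in H33 (SE 0.05, adjusted p listed as 0) and -2.57 in H12 (SE 0.12, adjusted p = 2.68e-99). Both clones thus kept 15.3% (H33) and 16.8% (H12) of the HepG2 level.

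TBX3 (chromosome 12 from 114670254 to 114684164), a T-box repressor that hepatoblasts need to proliferate and keep their fate, was at 0.549 CPM in H33 and 0.983 CPM in H12, against 60.7 CPM in HepG2. The authors' deposited tables gave it -6.79 in H33 (SE 0.09, adjusted p listed as 0) and -5.98 in H12 (SE 0.71, adjusted p = 7.46e-17). The H12 value is 1.59% of the HepG2 level, close to the common 1.64%. SOX9, known from bile duct and progenitor cells, had 48.3 CPM in H33 and 61.9 CPM in H12, against 193 CPM in HepG2. It fell by 2.00 in H33 (SE 0.04) and by 1.65 in H12 (SE 0.11, adjusted p = 1.59e-49) in the authors' deposited tables. SOX9 thus remained well above the floor in both clones, at 25.0% of the HepG2 level in H33 and 31.8% in H12.

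The GATA factors of endoderm split by size. GATA4 (chromosome 8) was at 11.5 CPM in H33 and 11.6 CPM in H12, against 31.3 CPM in HepG2, and GATA6 (chromosome 18) at 0.0827 CPM in H33 and 0.105 CPM in H12, against 2.65 CPM in HepG2. In the authors' deposited tables GATA4 fell by 1.44 in H33 (SE 0.06) and 1.45 in H12 (SE 0.08). GATA6 fell by 5.00 in H33 (SE 0.24) and 4.65 in H12 (SE 0.22) in the authors' deposited tables, to 3.12% and 3.97% of the HepG2 level. Adjusted p for both genes were at most 1.79e-64.

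The exceptions were HLX and CDX2. HLX, a homeobox gene of the gut and liver mesenchyme in mice, was at 3.04 CPM in H33 and 1.92 CPM in H12, against 0.219 CPM in HepG2. The authors' deposited tables list it at 3.8 in H33 (SE 0.23, adjusted p = 1.2e-62) and 3.09 in H12 (SE 0.22, adjusted p = 1.57e-42). CDX2 (chromosome 13 from 27962137 to 27971139), the caudal-type gene that specifies intestinal epithelium, was at 2.77 CPM in H33 and 2.56 CPM in H12, against 0.0216 CPM in HepG2. Its change was 7.0 in H33 (SE 0.34, adjusted p = 1.38e-95) and 6.89 in H12 (SE 0.33, adjusted p = 7.93e-97) in the authors' deposited tables.

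**Figure D2:**
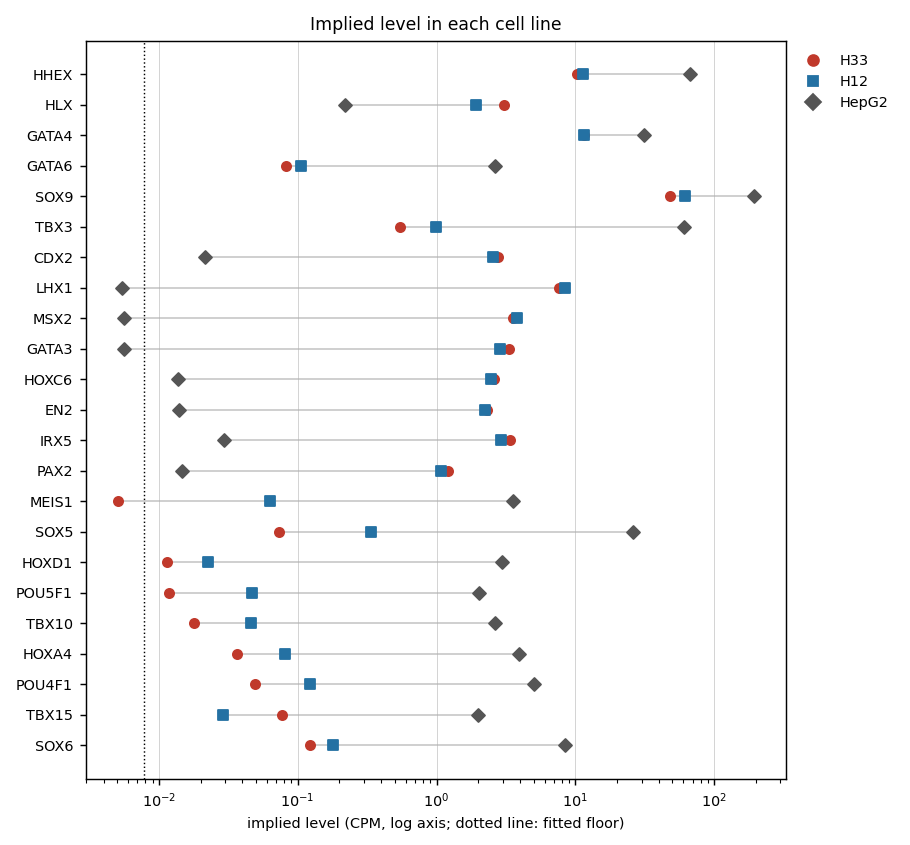
Implied CPM on a log axis in H33 (circles), H12 (squares) and HepG2 (diamonds) for the 7 listed liver, foregut and intestine regulators and the members with the 8 largest rises or falls in either clone. LHX1, MSX2 and GATA3 lie left of the dotted floor line in HepG2 only and above 2.8 CPM in both clones, and MEIS1 lies left of it in H33 only.

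HOX genes changed in opposite directions within the same cluster. Among the 10 listed, the authors' deposited table for H33 had 6 higher, 3 lower and 1 not called, and that for H12 had 7 higher and 3 lower. The HOXA cluster lies on chromosome 7, and its genes are on the minus strand, with HOXA13 from 27193503 to 27200106. HOXA2, an anterior gene of the hindbrain, was higher in both clones. The authors' deposited tables gave it 2.34 in H33 (SE 0.27) and 2.64 in H12 (SE 0.29). Further on, HOXA4 and HOXA5 were nearly lost. HOXA4 was at 0.0368 CPM in H33 and 0.0811 CPM in H12, against 3.96 CPM in HepG2, and HOXA5 at 0.0317 CPM in H33 and 0.047 CPM in H12, against 1.87 CPM in HepG2.

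The authors' deposited tables gave HOXA4 a change of -6.75 in H33 (SE 0.25, adjusted p = 6.41e-157) and -5.63 in H12 (SE 0.22, adjusted p = 3.62e-142). For HOXA5 the authors' deposited tables gave -5.88 in H33 (SE 0.37) and -5.31 in H12 (SE 0.34). HOXA3, whose annotated span takes in HOXA4 and HOXA5, stood at 0.08 in H33 (SE 0.10, adjusted p = 0.45) and 0.24 in H12 (SE 0.11, adjusted p = 0.025) in the authors' deposited tables. It was at 4.85 CPM in H33 and 5.46 CPM in H12, against 4.6 CPM in HepG2. HOXA6, HOXA7, HOXA9 and HOXA10 are not listed. At the far end the posterior genes HOXA11 and HOXA13, known from limb, kidney and genital tract, were higher again. HOXA11 was at 1.8 CPM in H33 and 1.84 CPM in H12, against 0.047 CPM in HepG2, with changes of 5.26 in H33 (SE 0.33) and 5.29 in H12 (SE 0.37) in the authors' deposited tables. HOXA13 rose by 4.71 in H33 (SE 0.28) and 4.66 in H12 (SE 0.29) in the authors' deposited tables. A HOXA3 or HOXA4 read can fall in more than 1 annotated gene, and whether counting used strand is not given in the sources used here. Of the 69 members, 27 share exon bases with another annotated gene, 25 of them with a gene on the opposite strand.

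**Figure D3:**
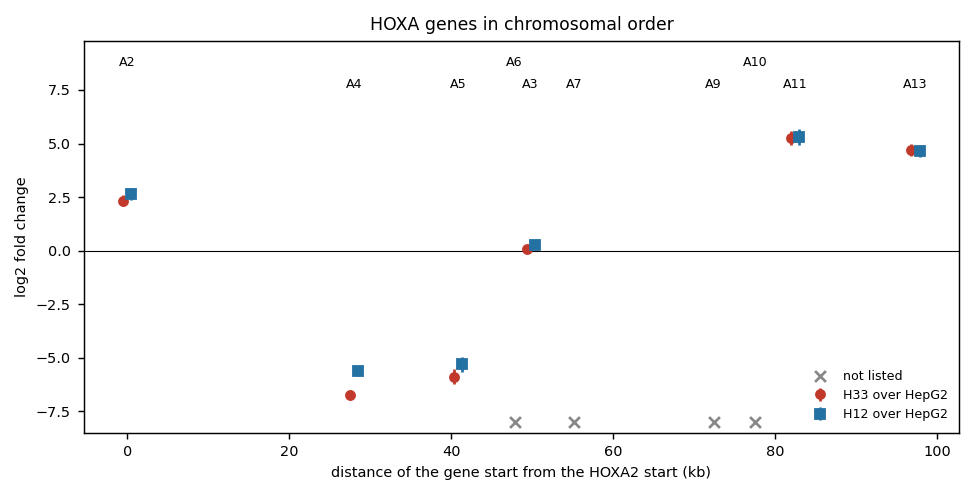
Log2 fold change over HepG2 (vertical axis) of 6 listed HOXA genes against the distance of their annotated start from that of HOXA2 in kb, with bars for the implied SE; red circles are H33 and blue squares H12. Crosses at the lower edge mark the 4 HOXA genes that are not listed and carry no value. HOXA2 on the left and HOXA11 and HOXA13 on the right are above 0, and HOXA4 and HOXA5 between them are below -5.

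The other HOX members were listed with large changes. HOXC6 and HOXC8, thoracic genes of the HOXC cluster on chromosome 12, were at 2.6 CPM and 3.44 CPM in H33 and at 2.45 CPM and 3.09 CPM in H12, against 0.0138 CPM and 0.0529 CPM in HepG2. HOXC6 rose by 7.56 in H33 (SE 0.41, adjusted p = 3.61e-74) and 7.51 in H12 (SE 0.37, adjusted p = 7.82e-91) in the authors' deposited tables. HOXC8 rose by 6.02 in H33 (SE 0.26) and 5.87 in H12 (SE 0.27) in the authors' deposited tables; its annotated span lies inside that of HOXC6. HOXD1 on chromosome 2, the anterior gene of its cluster, went the other way, with 0.0115 CPM in H33 and 0.0226 CPM in H12, against 2.95 CPM in HepG2. The authors' deposited tables list it at -8.0 in H33 (SE 0.39, adjusted p = 7.41e-92) and -7.04 in H12 (SE 0.35, adjusted p = 1.49e-91).

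The TALE genes, whose products include the HOX cofactors, moved in both directions within the MEIS family. Of 10 listed TALE genes, the authors' deposited table for H33 called 5 as higher and 5 as lower, and that for H12 called 3 as higher and 5 as lower. MEIS1 (chromosome 2 from 66433452 to 66573869) was at the floor in H33 (0.00504 CPM) and at 0.0636 CPM in H12, against 3.54 CPM in HepG2. In the authors' deposited table for H12 it stood at -5.82 (SE 0.28, adjusted p = 8.07e-96), or 1.78% of the HepG2 level. MEIS2 fell less, to 4.72 CPM in H33 and 2.63 CPM in H12, against 13.4 CPM in HepG2. The authors' deposited tables gave MEIS2 -1.51 in H33 (SE 0.08, adjusted p = 1.55e-82) and -2.37 in H12 (SE 0.09, adjusted p = 1.38e-164). MEIS3 (chromosome 19) was the member of the family that rose: 17.1 CPM in H33 and 13.8 CPM in H12, against 0.277 CPM in HepG2. Its change was 5.95 in H33 (SE 0.17, adjusted p = 5.53e-275) and 5.66 in H12 (SE 0.16, adjusted p = 8.43e-269) in the authors' deposited tables.

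PBX proteins bind DNA together with HOX and MEIS proteins. PBX2 was at 100.1 CPM in H33 and 97.8 CPM in H12, against 119 CPM in HepG2, a change of -0.25 in H33 (SE 0.03) and -0.29 in H12 (SE 0.08) in the authors' deposited tables. PBX3 stood at 0.23 in H33 (SE 0.09, adjusted p = 0.0108) and 0.03 in H12 (SE 0.08, adjusted p = 0.695) in the authors' deposited tables. PBX4 was higher, with 0.896 CPM in H33 and 0.899 CPM in H12, against 0.0247 CPM in HepG2. The repressors TGIF1 and TGIF2, which restrain TGF-beta signalling, differed. TGIF1 was at 0.10 in H33 (SE 0.04, adjusted p = 0.0319) and 0.0046 in H12 (SE 0.05, adjusted p = 0.934) in the authors' deposited tables. TGIF2 fell by 1.26 in H33 (SE 0.04) and 1.25 in H12 (SE 0.07) in the authors' deposited tables. Of the Iroquois genes on chromosome 16, which lie 644098 bases apart, IRX5 was at 3.37 CPM in H33 and 2.9 CPM in H12, against 0.0293 CPM in HepG2, while IRX3 fell by 0.47 in H33 (SE 0.09) and 0.51 in H12 (SE 0.08) in the authors' deposited tables. IRX5 thus rose by 6.85 in H33 (SE 0.30, adjusted p = 4.19e-111) and 6.63 in H12 (SE 0.32, adjusted p = 5.65e-93) in the authors' deposited tables.

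PAX2, PAX6, PAX8, SIX4 and SIX5 were higher in each of the authors' deposited tables. PAX8 (ENSG00000125618, chromosome 2 from 113215997 to 113278950), a paired-domain regulator of thyroid and kidney, was at 105 CPM in H33 and 107 CPM in H12, against 8.77 CPM in HepG2. The authors' deposited tables gave it 3.59 in H33 (SE 0.06) and 3.61 in H12 (SE 0.08), with the adjusted p listed as 0 in both. PAX6 (chromosome 11 from 31784779 to 31818062), known from eye, brain and pancreatic islets, was at 22.1 CPM in H33 and 24.7 CPM in H12, against 0.385 CPM in HepG2. Its level was 57.3-fold (H33) and 65.2-fold (H12) that of HepG2, a change of 5.84 in H33 (SE 0.12) and 6.03 in H12 (SE 0.12) in the authors' deposited tables. PAX2, a kidney and optic stalk gene, was at 1.22 CPM in H33 and 1.07 CPM in H12, against 0.0148 CPM in HepG2. Its change in the authors' deposited tables was 6.37 in H33 (SE 0.49, adjusted p = 2.98e-38) and 6.16 in H12 (SE 0.49, adjusted p = 2.29e-36).

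SIX4 and SIX5 belong to the sine oculis family, whose proteins act with EYA coactivators in muscle, ear and kidney. SIX4 was at 31.4 CPM in H33 and 32.9 CPM in H12, against 7.25 CPM in HepG2. The authors' deposited tables gave SIX4 2.11 in H33 (SE 0.06) and 2.19 in H12 (SE 0.06). SIX5 rose by 1.75 in H33 (SE 0.09) and 1.54 in H12 (SE 0.09) in the authors' deposited tables.

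PKA acts on transcription through CREB, a factor that binds the cyclic AMP response element TGACGTCA, so promoters were searched for it. RefSeq promoter windows (GRCh38.p14, 250 bases before a start to 50 after, 300 in all) were found for 47 of the 69 members, with 86 windows, since a gene can have several starts. The full element on either strand was present in 3 of these windows (3.49%), against 1.85% of all 35116 windows. The shorter TGACG, which the full element contains, was in 14 member windows (16.3%) on either strand, against 24.6% of all windows. The homeodomain core TAATTA was in 3 member windows (3.49%), against 4.84% of all. Genes with several windows weigh more in these shares. Counted by gene, the full element was in 3 of 47 members and in 614 of all 27305 genes. By the same count TGACG was in 14 of 47 and 7761 of 27305, and TAATTA in 3 of 47 and 1624 of 27305. The windows with the full element belong to PAX6, DLX6 and TGIF2, of which PAX6 was higher and DLX6 and TGIF2 were lower in both clones. They are printed 5′ to 3′ to show the letters, and what the element has to do with the direction of a change was not tested. PAX6 has further windows without the element. Capitals mark TGACGTCA, which starts 76 bases before the annotated start in PAX6 (chr11:31817912-31818211, minus strand), 54 before it in DLX6 (chr7:97005303-97005602, plus strand) and 7 before it in TGIF2 (chr20:36573347-36573646, plus strand). A match is a description of the letters and not a bound site.
PAX6: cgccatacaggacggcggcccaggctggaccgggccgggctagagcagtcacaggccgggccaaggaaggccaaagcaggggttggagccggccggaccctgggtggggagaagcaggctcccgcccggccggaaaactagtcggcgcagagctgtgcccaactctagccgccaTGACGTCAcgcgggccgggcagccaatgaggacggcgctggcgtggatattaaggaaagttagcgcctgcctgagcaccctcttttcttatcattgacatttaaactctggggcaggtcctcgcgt
DLX6: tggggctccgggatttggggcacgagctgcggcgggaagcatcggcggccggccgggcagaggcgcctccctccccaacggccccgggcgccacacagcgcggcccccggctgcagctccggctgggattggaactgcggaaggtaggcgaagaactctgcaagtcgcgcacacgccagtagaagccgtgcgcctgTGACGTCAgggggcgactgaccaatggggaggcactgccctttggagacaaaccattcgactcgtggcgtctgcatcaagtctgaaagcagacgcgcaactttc
TGIF2: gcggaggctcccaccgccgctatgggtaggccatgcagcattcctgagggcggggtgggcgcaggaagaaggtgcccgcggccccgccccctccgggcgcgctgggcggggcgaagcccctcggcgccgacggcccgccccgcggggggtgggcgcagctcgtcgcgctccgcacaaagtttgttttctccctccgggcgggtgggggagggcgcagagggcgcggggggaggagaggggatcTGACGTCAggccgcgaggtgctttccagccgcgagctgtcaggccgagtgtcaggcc

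LIM homeobox and POU genes went both ways. The authors' deposited table for H33 called 3 of 7 as higher and 4 as lower, and that for H12 called 4 of 8 as higher and 4 as lower. LHX1 (ENSG00000273706, chromosome 17 from 36936785 to 36944612), needed for the head organizer and the kidney, was at 7.62 CPM in H33 and 8.47 CPM in H12, with HepG2 at the floor (0.00542 CPM). It was called as higher in the authors' deposited tables, with an adjusted p of 1.18e-250 in H33 and 1.53e-255 in H12. LHX6, known from forebrain interneurons, fell by 2.82 in H33 (SE 0.16) and 2.86 in H12 (SE 0.15) in the authors' deposited tables. LHX4, listed for H12 alone, rose by 1.49 (SE 0.31, adjusted p = 1.43e-06) in the authors' deposited table.

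Of the POU genes, POU5F1 and POU4F1 were nearly lost. POU5F1 (OCT4, a pluripotency factor) was at 0.0118 CPM in H33 and 0.0468 CPM in H12, against 2.02 CPM in HepG2. It stood at -7.42 in H33 (SE 0.41, adjusted p = 6.24e-72) and -5.43 in H12 (SE 0.32, adjusted p = 8.19e-65) in the authors' deposited tables. POU5F1 has near-identical pseudogene copies, so its counts are uncertain. POU4F1, a sensory neuron gene, was at 0.0491 CPM in H33 and 0.123 CPM in H12, against 5.04 CPM in HepG2, or -6.68 in H33 (SE 0.25, adjusted p = 1.83e-158) and -5.39 in H12 (SE 0.68, adjusted p = 3.43e-15) in the authors' deposited tables. The broadly expressed POU2F1 fell by 0.65 in H33 (SE 0.05) and 0.68 in H12 (SE 0.06) in the authors' deposited tables. POU6F1 rose by 3.30 in H33 (SE 0.27) and 3.13 in H12 (SE 0.24), and POU2F2 by 1.07 in H33 (SE 0.24) and 1.01 in H12 (SE 0.24), in the authors' deposited tables.

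The NKX, DLX, MSX and head patterning genes held paralogs that moved in opposite directions. Of 14 listed for H33, the authors' deposited table called 9 as higher and 5 as lower, and of 13 for H12 it called 7 as higher and 5 as lower. MSX2 (chromosome 5), a BMP-responsive gene of limb and skull, was at 3.55 CPM in H33 and 3.77 CPM in H12, with HepG2 at the floor (0.00559 CPM). Its adjusted p in the authors' deposited tables was 2.3e-114 in H33 and 9.82e-121 in H12. Its paralog MSX1 was lower, with 2.02 CPM in H33 and 1.68 CPM in H12, against 5.91 CPM in HepG2. The authors' deposited tables gave MSX1 -1.55 in H33 (SE 0.11) and -1.83 in H12 (SE 0.11).

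The engrailed genes mark the midbrain-hindbrain border. EN2 (chromosome 7) was at 2.3 CPM in H33 and 2.24 CPM in H12, against 0.0139 CPM in HepG2. It rose by 7.37 in H33 (SE 0.42, adjusted p = 3.17e-69) and 7.36 in H12 (SE 0.47, adjusted p = 9.16e-56) in the authors' deposited tables. EN1, listed for H33 alone, was at 0.856 CPM against 0.0248 CPM in HepG2, a change of 5.11 (SE 0.48) in the authors' deposited table. Of the forebrain genes, OTX1 fell by 1.37 in H33 (SE 0.10) and 1.42 in H12 (SE 0.10), and EMX1 by 3.99 in H33 (SE 0.38) and 4.82 in H12 (SE 0.42), in the authors' deposited tables. The hindlimb and pituitary gene PITX1 was higher by 0.81 in H33 (SE 0.18) and 0.87 in H12 (SE 0.18) in the authors' deposited tables.

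Distal-less genes pattern limbs, jaws and forebrain. DLX1 was at 4.89 CPM in H33 and 4.36 CPM in H12, against 0.776 CPM in HepG2, while its neighbour DLX2, 9761 bases away on chromosome 2, was at 0.861 CPM in H33 and 0.748 CPM in H12, against 0.595 CPM in HepG2. In the authors' deposited tables DLX1 rose by 2.66 in H33 (SE 0.15) and 2.5 in H12 (SE 0.14). DLX2 stood at 0.53 in H33 (SE 0.24, adjusted p = 0.0298) and 0.33 in H12 (SE 0.24, adjusted p = 0.184) in the authors' deposited tables. DLX4 rose by 0.89 in H33 (SE 0.16) and 0.66 in H12 (SE 0.15) in the authors' deposited tables. DLX6 was lower, with 0.0806 CPM in H33 and 0.177 CPM in H12, against 5.24 CPM in HepG2. Its change was -6.02 in H33 (SE 0.20, adjusted p = 1.21e-202) and -4.91 in H12 (SE 0.50, adjusted p = 4.05e-22) in the authors' deposited tables.

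Of the NKX genes, the heart regulator NKX2-5 was at 5.79 CPM in H33 and 4.82 CPM in H12, against 0.476 CPM in HepG2. It rose by 3.61 in H33 (SE 0.19) and 3.35 in H12 (SE 0.18) in the authors' deposited tables. NKX1-2 was at 1.14 CPM in H33 and 0.759 CPM in H12, against 0.0235 CPM in HepG2.

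SOX genes other than SOX9 were mostly lower. The authors' deposited table for H33 had 1 of 7 higher and 5 lower, and that for H12 had 1 higher and 6 lower. SOX5 (chromosome 12 from 23529500 to 24562544), which works with SOX9 and SOX6 in cartilage, was at 0.0739 CPM in H33 and 0.339 CPM in H12, against 26.1 CPM in HepG2. It stood at -8.46 in H33 (SE 0.14, adjusted p listed as 0) and -6.30 in H12 (SE 0.68, adjusted p = 4.56e-20) in the authors' deposited tables. SOX6 was at 0.124 CPM in H33 and 0.18 CPM in H12, against 8.38 CPM in HepG2. The authors' deposited tables list SOX6 at -6.08 in H33 (SE 0.18, adjusted p = 9.99e-238) and -5.58 in H12 (SE 0.17, adjusted p = 3.74e-223). SOX5 thus stood at 0.283% of its HepG2 level in H33 and 1.27% in H12, and SOX6 at 1.47% in H33 and 2.09% in H12.

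The SoxC gene SOX12 fell by 1.05 in H33 (SE 0.05) and 1.12 in H12 (SE 0.05), and its relative SOX4 by 0.39 in H33 (SE 0.09) and 0.66 in H12 (SE 0.09), in the authors' deposited tables. SOX18, an endothelial gene, fell by 0.94 in H33 (SE 0.22) and 1.03 in H12 (SE 0.21) in the authors' deposited tables. SOX13 was at -0.09 in H33 (SE 0.05, adjusted p = 0.0912) and -0.32 in H12 (SE 0.06, adjusted p = 1.52e-06) in the authors' deposited tables. SOX8, a paralog of SOX9, was the gene that rose, with 1.42 CPM in H33 and 1.08 CPM in H12, against 0.139 CPM in HepG2. Its change was 3.36 in H33 (SE 0.31) and 2.91 in H12 (SE 0.30) in the authors' deposited tables.

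The GATA factors known from blood, breast and neurons rose where those of endoderm fell. GATA2 (chromosome 3 from 128479427 to 128493185) was at 64.5 CPM in H33 and 52.2 CPM in H12, against 11.2 CPM in HepG2. The authors' deposited tables gave it 2.53 in H33 (SE 0.08, adjusted p = 4.2e-215) and 2.23 in H12 (SE 0.08, adjusted p = 4.67e-154). GATA3 (chromosome 10) was at 3.34 CPM in H33 and 2.86 CPM in H12, with HepG2 at the floor (0.00562 CPM). Its adjusted p in the authors' deposited tables was 4.22e-78 in H33 and 1.35e-100 in H12.

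Besides TBX3, 3 of 5 T-box genes were lower and 1 higher in each of the authors' deposited tables. TBX10 was at 0.0181 CPM in H33 and 0.0463 CPM in H12, against 2.63 CPM in HepG2, with changes of -7.19 in H33 (SE 0.38, adjusted p = 3.47e-79) and -5.84 in H12 (SE 0.32, adjusted p = 6.2e-72) in the authors' deposited tables. TBX15, known from skeleton and fat, was at 0.0775 CPM in H33 and 0.0289 CPM in H12, against 1.98 CPM in HepG2. Its changes were -4.68 in H33 (SE 0.29, adjusted p = 6.71e-60) and -6.10 in H12 (SE 0.34, adjusted p = 1.38e-72) in the authors' deposited tables. TBX4, a hindlimb and lung gene, fell by 2.14 in H33 (SE 0.24) and 1.98 in H12 (SE 0.23) in the authors' deposited tables. Its neighbour TBX2, 42937 bases away on chromosome 17, stood at -0.04 in H33 (SE 0.13, adjusted p = 0.772) and -0.06 in H12 (SE 0.12, adjusted p = 0.649) in the authors' deposited tables. TBX19, which pituitary cells use to make POMC, rose by 1.53 in H33 (SE 0.21) and 1.43 in H12 (SE 0.18) in the authors' deposited tables.

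Levels per kb of annotated exon show which members had the most RNA in each line. In H33 these were PBX2 (23.0 CPM per kb), GATA2 (14.5), PAX8 (14.2), SOX9 (12.3) and TGIF2 (10.3). In H12 they were PBX2 (22.5 CPM per kb), SOX9 (15.7), PAX8 (14.5), GATA2 (11.7) and TGIF2 (10.5). HepG2 had SOX9 (49.1 CPM per kb), PBX2 (27.4), HHEX (26.4), TGIF2 (24.7) and SOX12 (14.2) at the top. The exon lengths cover every annotated transcript, so the order of close neighbours such as GATA2 and PAX8 is not firm.

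The clones were set beside each other through their fold changes, by the difference over the root of the summed squared SEs, adjusted over 14765 genes. That both share the HepG2 samples makes this test conservative, except where an SE near the floor is too small. If the samples of a line carry only a technical spread, the SEs and p-values are too small for a difference between clones. Of 67 members 6 passed, or 8.96%, where 5.40% of all genes did. MEIS2 had the smallest of these differences and the best supported level: 0.86 (SE 0.12, adjusted p = 2.96e-11), with the fall smaller in H33 than in H12. TBX15 had a difference of 1.42 (SE 0.44, adjusted p = 0.0274), also with the smaller fall in H33. HOXA4 had -1.12 (SE 0.34, adjusted p = 0.0191), POU5F1 -1.99 (SE 0.52, adjusted p = 0.00402) and SOX5 -2.16 (SE 0.70, adjusted p = 0.0376), each with the larger fall in H33. MEIS1 also passed, but its H33 level lies at the fitted floor, so its difference is no measure of size and no SE is given. Of the 63 members with no group at the floor, 5 passed, in an alternative chosen after seeing the data. The H12 level was 1.27% of HepG2 for SOX5, 1.46% for TBX15, 2.02% for HOXA4 and 2.32% for POU5F1, where genes nearly absent from H33 share 1.64%. Among the 54 members with both fold changes above -5, MEIS2 alone passed. For the other 61 members a difference was not shown. HHEX had a difference of -0.13 (SE 0.13) and PAX8 of -0.03 (SE 0.10), whereas that of PAX2, 0.21, had the far wider SE of 0.69.

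**Figure D4:**
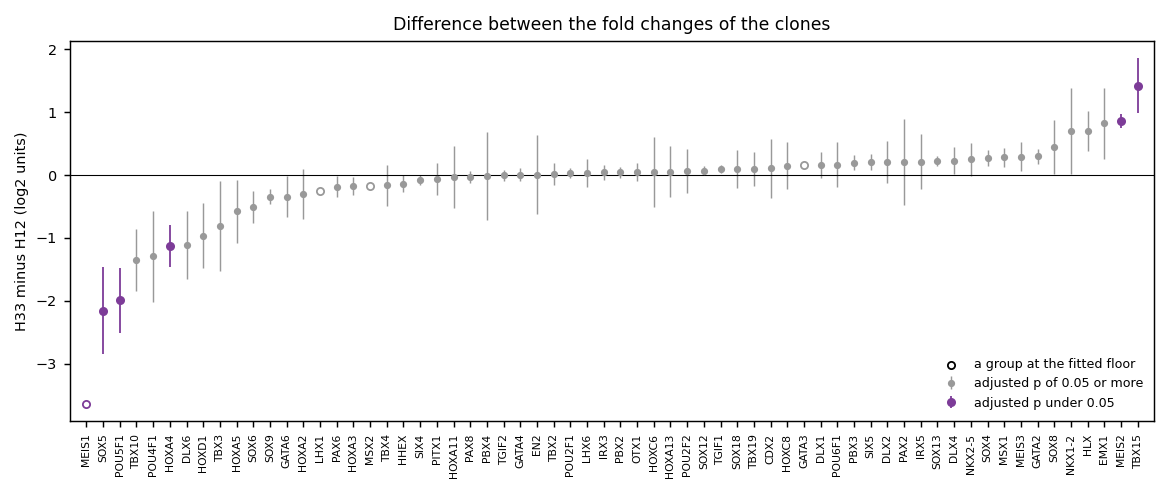
Difference of the log2 fold changes, H33 minus H12, for 64 of the 67 members in both tables in rising order, with bars for its SE. Open points have a group at the fitted floor and no bar. Purple points had an adjusted p under 0.05: MEIS1, SOX5, POU5F1 and HOXA4 below 0, and MEIS2 and TBX15 above it.

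Partner genes of these factors were described from lists of 67 cofactor, chromatin and retinoid genes, 51 of which are listed for each clone. The authors' deposited table for H33 had 34 of them higher and 14 lower (median 0.58), and that for H12 had 32 higher and 16 lower (median 0.61), against medians of -0.02 and -0.03 over all genes. The share called was 94.1% in each clone, where 89.6% of all genes were called in H33 and 86.0% in H12. Of all genes 44.2% were higher in H33 and 41.8% in H12. Partners of the sine oculis family included DACH1, a corepressor, at 5.96 CPM in H33 and 3.04 CPM in H12, against 0.0132 CPM in HepG2. The LIM-domain partners SSBP2 and LMO2 were higher: SSBP2 by 6.95 in H33 (SE 0.17) and 6.63 in H12 (SE 0.17) in the authors' deposited tables, and LMO2 to 0.813 CPM in H33 and 0.802 CPM in H12, with HepG2 at the floor. Of 7 listed genes of retinoid supply and response, which governs HOX genes in embryos, 5 were higher and 2 lower in each of the authors' deposited tables. ALDH1A3, which makes retinoic acid, was at 179 CPM in H33 and 198 CPM in H12, against 0.78 CPM in HepG2, and STRA6, the retinol uptake receptor, at 25.2 CPM in H33 and 22.8 CPM in H12, against 0.155 CPM in HepG2.

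Polycomb proteins keep HOX genes silent. Of their 21 listed genes the authors' deposited table for H33 called 13 as higher and 7 as lower, and that for H12 13 as higher and 8 as lower. Their medians were 0.34 and 0.36. Of all genes 89.6% were called in H33, 44.2% as higher, and 86.0% in H12, 41.8% as higher. Of 6 genes whose products support HOX expression, the authors' deposited table for H33 had 4 higher and 1 lower, and that for H12 had 4 higher and 2 lower. KDM6A, which removes the Polycomb methyl mark, was at 0.0927 CPM in H33 and 0.436 CPM in H12, against 25.2 CPM in HepG2. In the authors' deposited tables KDM6A stood at -8.09 in H33 (SE 0.14) and -5.89 in H12 (SE 0.67), and the H12 value is close to the common level of nearly absent genes.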

How the data were processed

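The labels describe 18 poly-A RNA samples, 6 each of H33, H12 and HepG2, grouped by their titles. GRCh38.p10, edgeR 3.28.0, RSEM, STAR 2.5.3a and bcl2fastq 2.20.0.422 are given in the submitters' processing notes, without roles. Per the file headers, the authors' deposited edgeR tables give for each gene a log2 fold change, a mean log2 CPM, a likelihood ratio (a score) and a p-value with its adjusted form. Each p-value matched the upper chi-square tail of its likelihood ratio. Not given in the sources used here are the filters, the scaling, the annotation and whether counting used strand. Values of single libraries were not used, so depth is unknown and no sample could be left out; count tests planned for files with counts were not run.

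Group levels were computed from mean CPM and fold change, assuming equal groups, and SE as the absolute fold change over the root of the likelihood ratio. The H33 minus H12 test was tested on simulated data. Alternatives were stricter thresholds, a minimum mean CPM, centring on the median of all genes, a level of 0.1 CPM as lower limit, and a minimum SE. Coordinates come from GENCODE 29 (GRCh38) and promoters from RefSeq. Members, roles and partner lists were chosen with earlier results of these data known; roles were set after the values were seen. Full values go to the 8 largest rises and falls per clone, the liver, foregut and intestine regulators and the largest differences between clones. Of the partner lists they go to the 6 largest changes, and other members are named under their role. Some members enter the counts but are not reported here by name. Tools were Python 3.11.15, pandas 2.3.3, numpy 2.4.6, matplotlib 3.10.9 and scipy 1.17.1.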

Additional observations from a re-analysis of the deposited data

Results flagged for a closer look

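Changes over HepG2 that differed between H33 and H12 by the test of the difference itself concerned 6 of 67 members. The H33 minus H12 difference in log2 units was -3.64 for MEIS1, -2.16 for SOX5, -1.99 for POU5F1, -1.12 for HOXA4, 0.86 for MEIS2 and 1.42 for TBX15. For MEIS1 the level in H33 lies at the fitted floor, so its difference is no measure of size. SOX5, POU5F1, HOXA4 and TBX15 had H12 fold changes under -5. Those of SOX5, HOXA4 and TBX15 lay within 2 SD of the common level of genes nearly absent from H33. POU5F1, at -5.43 in H12, lay outside that range. Among members with both fold changes above -5, MEIS2 alone passed.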

How the results depend on the processing

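Counts of called members kept within 1.5 times of 65 (H33) and 64 (H12) under all 5 alternatives: 62 and 63 at an adjusted p of 0.01, 54 and 55 with at least 1 log2 unit, 52 and 51 with at least 0 mean log2 CPM, 65 and 64 after centring, and 58 and 60 by Bonferroni adjustment. No called member changed sign after centring. At 0.01, 3 members lost their call in H33 and 1 in H12. The median fold change of the members, 0.16 in H33 and 0.14 in H12, was -0.04 and -0.18 for members with at least 0 mean log2 CPM, a change of sign in both; fewer and more abundant members enter there. With levels under 0.1 CPM set to 0.1 CPM both medians were the same. The 6 differences between the clones became 3 at an adjusted p of 0.01 and 1 among genes with both fold changes above -5, where fewer members are compared; leaving out genes with a group at the fitted floor, chosen after seeing the data, gave 5. No paired analysis was possible because the tables hold no columns per sample, and for the same reason no replicate could be left out. Unknown depth limits every level near the floor.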

Other observations

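Other homeobox and T-box genes outside the families followed here were described from a list of 54, of which 24 are listed for each clone. The authors' deposited tables had 13 higher and 6 lower in H33 and 13 higher and 7 lower in H12, with medians of 0.21 and 0.27. The share called was 79.2% in H33 and 83.3% in H12, where 89.6% and 86.0% of all genes were called. Some of the 24, chosen after their values were seen, are named here. SHOX2, a limb and heart gene, was at 93.3 CPM in H33 and 84.6 CPM in H12, against 0.421 CPM in HepG2. LMX1B, a limb, kidney and midbrain gene, was at 18.8 CPM in H33 and 16.6 CPM in H12, against 0.148 CPM in HepG2. PROX1, which hepatoblasts need to leave the liver bud, was at 0.419 CPM in H33 and 2.57 CPM in H12, against 136 CPM in HepG2. MIXL1, a mesendoderm gene, was at 0.113 CPM in H33 and 1.12 CPM in H12, against 69.3 CPM in HepG2. The H12 levels of PROX1 and MIXL1 are 1.86% and 1.59% of HepG2, near the 1.64% at which genes nearly absent from H33 gather in H12.

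LHX1, PAX2, PAX8 and GATA3, which are known together from the forming nephric duct, were called as higher in each of the authors' deposited tables. This grouping was also made after the values were seen, and their levels stand with the members above.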
